A study of Mus musculus with 6 samples.

Results

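The heat shock chaperones examined here are 10 mouse genes, *Hspa1a*, *Hspa1b*, *Hspa5*, *Hspa8*, *Hsp90aa1*, *Hsp90ab1*, *Hsph1*, *Dnajb1*, *Hspb1* and *Hspd1*. They were chosen by name as chaperones of different stress inducibility and compartment, and each was matched by symbol to its gene identifier among the 56923 genes counted. RNA from mouse prefrontal cortex was sequenced in 3 libraries of *Pla2g4e* knockout (KO) and 3 libraries of wild type (WT). *Pla2g4e* encodes a cytosolic phospholipase that acts as an N-acyltransferase in phospholipid metabolism. The comparison addresses which transcripts of this tissue differ when the enzyme is missing. Per the study's methods the KO is constitutive, so all cells carry it. It is the *Pla2g4e* tm2a allele on a C57BL/6N-A tm1Brd background, a gene trap that carries LacZ and is meant to abolish the gene product. No mouse of either group is described as treated. The study used males and females, and the labels give no age, sex, litter or batch. The labels do not state that each library came from a separate animal, so the p-values measure the spread between these 6 libraries.

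Chaperones bind proteins that are unfolded or not yet folded and, mostly with energy from ATP, keep them from aggregating and let them fold. Cells hold constitutive forms for everyday folding, such as HSC70 (*Hspa8*) and HSP90β (*Hsp90ab1*), and inducible forms that heat shock factor 1 switches on when damaged protein accumulates, such as HSP70 (*Hspa1a*, *Hspa1b*), HSP110 (*Hsph1*), HSP40 (*Dnajb1*) and HSP27 (*Hspb1*). The endoplasmic reticulum and the mitochondrion have chaperones of their own, BiP (*Hspa5*) and HSP60 (*Hspd1*), which answer to stress in these organelles. In neurons HSC70 is also known for uncoating clathrin-coated vesicles at the synapse.

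The control regions differ between members, so the stretch before the transcription start is shown for the members in which a stress motif was found. RefSeq sequences before annotated start sites (GRCm38.p6 build) were used for 7 of the 10 members, and those of *Hspa8*, *Hsp90aa1* and *Hsp90ab1* were not analysed here. Heat shock factors bind inverted repeats of the unit GAA. A pair of units in either order (GAANNTTC or TTCNNGAA) was searched on both strands over 250 bases before each start, and 12.8% of all 32851 such stretches hold it. The unfolded protein response acts through the ER stress element, searched as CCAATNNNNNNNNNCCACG or its complement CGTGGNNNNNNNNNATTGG, which 0.113% hold. The sequences run 5′ to 3′ towards the start, 160 bases each for 5 genes and 30 bases for *Hspd1*, with positions on GRCm38.p6, and capitals mark the units.
*Hspa1a*, chr17:34972157-34972316, minus strand: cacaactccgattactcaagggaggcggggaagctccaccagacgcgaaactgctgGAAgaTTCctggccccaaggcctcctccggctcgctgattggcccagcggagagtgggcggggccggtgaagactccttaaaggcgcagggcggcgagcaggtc
*Hspa1b*, chr17:34959239-34959398, minus strand: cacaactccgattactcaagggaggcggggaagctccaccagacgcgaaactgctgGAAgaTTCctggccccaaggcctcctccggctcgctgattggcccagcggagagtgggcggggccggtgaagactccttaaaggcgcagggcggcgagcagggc
*Hsph1*, chr5:149636337-149636496, minus strand: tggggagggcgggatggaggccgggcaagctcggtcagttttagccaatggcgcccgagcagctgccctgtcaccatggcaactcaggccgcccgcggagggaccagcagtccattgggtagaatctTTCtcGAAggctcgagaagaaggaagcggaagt
*Hspb1*, chr5:135887759-135887918, plus strand: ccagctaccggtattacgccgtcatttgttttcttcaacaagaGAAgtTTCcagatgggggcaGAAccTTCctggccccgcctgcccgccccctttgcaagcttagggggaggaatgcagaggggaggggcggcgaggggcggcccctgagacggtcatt
*Hspa5*, chr2:34771930-34772089, plus strand: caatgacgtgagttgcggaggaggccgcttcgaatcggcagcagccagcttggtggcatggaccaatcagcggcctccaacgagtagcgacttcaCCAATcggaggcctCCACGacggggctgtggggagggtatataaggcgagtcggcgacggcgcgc
*Hspd1*, chr1:55088053-55088082, minus strand: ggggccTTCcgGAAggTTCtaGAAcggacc
The GAA pair lies 104 bases before the start in both *Hspa1a* and *Hspa1b*, whose 250 bases differ at 3 positions. It lies 33 bases before the start of *Hsph1*, and *Hspb1* has it at 117 and 97 bases. In *Hspa5* the ER stress element begins 65 bases before the start. *Hspd1* has 4 units in a row 144 bases before its other annotated start, overlapping an annotated exon. Runs of at least 3 units (GAANNTTCNNGAA or TTCNNGAANNTTC) occur in 0.466% of all stretches. No match to any of the motifs was found in the 250 bases of *Dnajb1*, which says only that these letters are not there. The motif matches are descriptions of sequence and were not tested as binding sites.

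Library totals ranged from 11792463 to 14594230 fragments, and the 10 members together took 0.289% to 0.356% of them. *Pla2g4e* itself was at 5.95, 8.12 and 7.97 CPM (counts scaled to 1e+06 fragments after TMM factors) in the KO libraries, against 7.84, 11.3 and 13.2 CPM in WT. Of the WT libraries, replicate 1 as labelled lay between the KO values, and fragments over the gene were counted in every KO library. The log2 fold change of KO over WT was -0.55 (SE 0.21, limma-voom adjusted p = 0.635), and directions given here follow the labels. In the study, Western blots and immunostaining of KO hippocampus showed no Pla2g4e signal. Those measure protein in hippocampus, unlike the RNA of prefrontal cortex counted here. The library labelled WT replicate 1 and KO replicate 1 lacked Y-linked transcripts (0.157 and 0 summed CPM), whereas the other 4 libraries had 182 to 190.5 summed CPM. *Xist*, the RNA of the inactive X chromosome, was at 969 and 1387 CPM in the former and 0 to 0.246 CPM in the other 4. By these transcripts, the library labelled WT replicate 1 and KO replicate 1 are female and the other 4 male. All 6 markers of cortical excitatory neurons were detected in the tissue, which the labels give as prefrontal cortex. Choroid plexus markers summed to 34.4 CPM in WT replicate 2 and 5.17 to 6.83 CPM in the other libraries.

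Constitutive chaperones had the highest transcript levels and the HSP70 genes the lowest. On a per-length scale (TPM, a transcript abundance corrected for length, mean of 6 libraries), *Hsp90ab1* stood first at 1507 TPM, followed by *Hspa8* at 707 TPM. *Hsp90aa1*, the inducible HSP90α, came next at 486 TPM. The ranges of these 3 genes over the libraries overlapped neither each other nor the next gene. BiP (*Hspa5*, 205 TPM), HSP110 (*Hsph1*, 152 TPM) and HSP60 (*Hspd1*, 140.0 TPM) followed, and the ranges of *Hspa5* and *Hsph1*, and of *Hsph1* and *Hspd1*, overlapped. *Dnajb1*, the J-domain protein that hands clients to HSP70, was at 63.3 TPM, apart from its neighbours. The small heat shock protein *Hspb1* was at 15.2 TPM, with *Hspa1b* (7.01 TPM) and *Hspa1a* (5.06 TPM) last, and the ranges of the HSP70 pair overlapped. Inducible members therefore spanned 5.06 to 486 TPM, and their sum was 676 to 795 TPM per library against 2012 to 2484 TPM for *Hspa8* and *Hsp90ab1*. TPM here divides by all annotated exon bases of a gene, 7266 for *Hsph1*, 4229 for *Hspa5*, 2642 for *Hspd1* and 4301 for *Hspa8*. Their longest protein-coding transcripts have 3802, 3672, 2423 and 2394 bases. The order of *Hspa5*, *Hsph1* and *Hspd1*, and these sums, thus depend on the length used, and other lengths were not tried.

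Depth limits the lowest members. *Hspa1a*, *Hspa1b* and *Hspb1* had 38 to 82 fragments per library, whereas the other 7 had 635 to 16475. Reads that match several places were not counted, and a share of the 100-base stretches of each member's longest protein-coding transcript also occurs in other genes. This share was 48.6% for *Hspa1a* and 49.9% for *Hspa1b*, most often shared with each other. It was 62.8% for *Hspa8*, 47.5% for *Hsp90aa1*, 42.7% for *Hspb1* and 26.9% for *Hspd1*, most often shared with pseudogenes. The levels of these 6 genes are therefore uncertain and may be underestimated, while the other 4 members had no shared stretch.

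Between KO and WT, 9 of the 10 chaperone genes had a log2 fold change below 0, beside 48.1% of the 19084 genes tested. The median log2 fold change was -0.16 over the members and 0.01 over all genes tested. Over the members it was -0.10 without the library labelled WT replicate 1 and -0.24 without WT replicate 3. None passed the adjusted threshold of 0.05 in limma-voom, edgeR's quasi-likelihood test or DESeq2. Over all genes tested, 0% passed it in limma-voom and in the quasi-likelihood test, and 1 gene, not a member, passed it in DESeq2. At an unadjusted p under 0.05, 4 members were lower in KO in limma-voom (*Hspa8*, *Hsp90ab1*, *Hspa1a* and *Hspb1*) and none was higher, beside 7.82% of all genes, 3.44% lower and 4.38% higher. This count was 3 in the quasi-likelihood test, beside 3.31% of all genes, and 2 in DESeq2, beside 2.43%. The groups were fully separated for *Hspa1a* and *Hspd1*, both lower in KO. Among all genes tested 13% were separated, and 6.29% with KO below WT. The plot of CPM by library shows the values behind these counts. In bulk tissue, fewer cells of a type and less RNA per cell cannot be told apart.

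**Figure D1:**
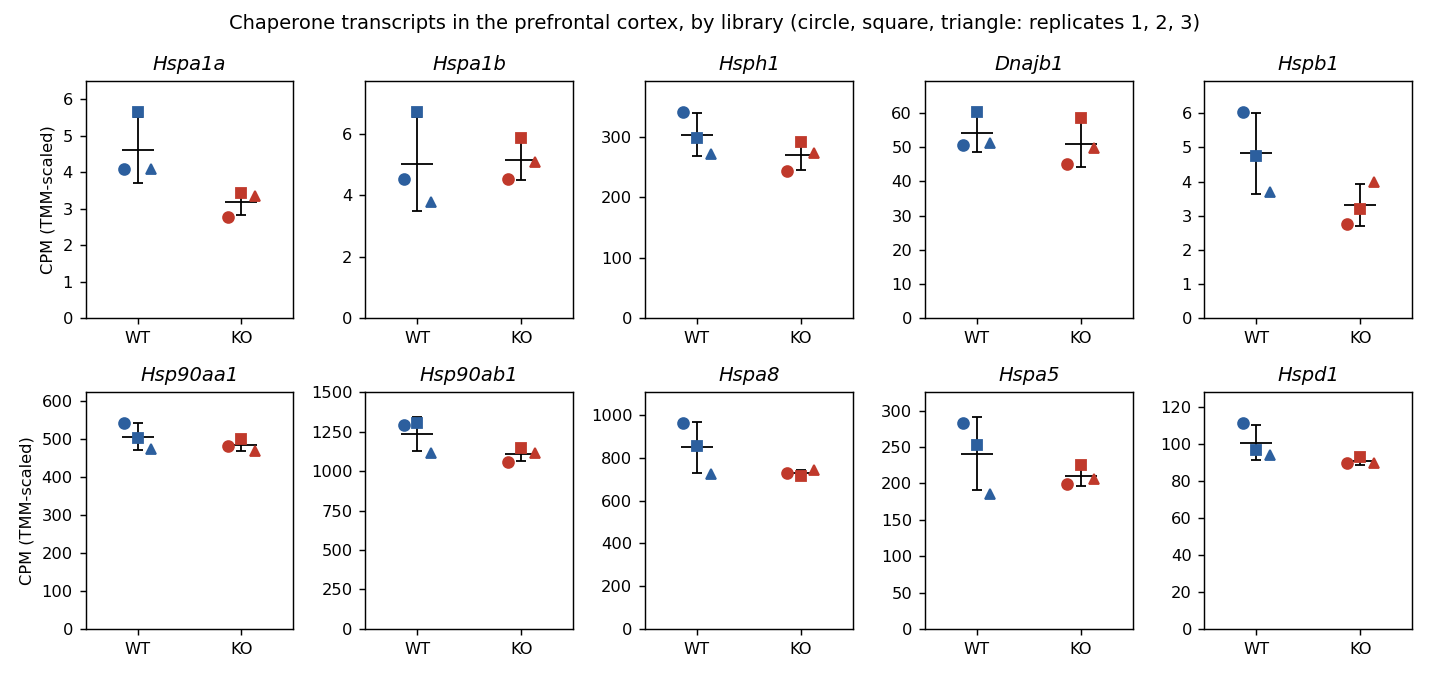
CPM after TMM scaling (vertical axes, starting at 0) of each chaperone gene in WT (blue) and KO (red); circles, squares and triangles are replicates 1, 2 and 3, and the black line and bar give mean and SD of 3 libraries. WT replicate 2 lies above every KO library for all 10 genes, and WT replicate 3 lies within the KO range for 6 of them.

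Among the constitutive cytosolic members, *Hspa8* (ENSMUSG00000015656.18, chr9:40712280-40721383, plus strand on GRCm39, as for all genes below) encodes the HSC70 that folds new proteins and disassembles clathrin coats. It was at 727, 714 and 744 CPM in the KO libraries, against 964, 856 and 725 CPM in WT. The libraries labelled WT replicates 1 and 2 lay above all KO libraries, and WT replicate 3 lay among them. The means were 729 ± 15.1 and 849 ± 119.6 CPM (SD, n = 3), with a log2 fold change of -0.21 (SE 0.09, unadjusted p = 0.033, adjusted p = 0.635, limma-voom). *Hsp90ab1* (ENSMUSG00000023944.15, chr17:45878701-45884197, minus strand) encodes the HSP90 isoform that matures kinases and receptors in unstressed cells. It was at 1056, 1146 and 1116 CPM in the KO libraries, against 1291, 1306 and 1113 CPM in WT. The groups again overlapped only through WT replicate 3. Its log2 fold change was -0.16 (SE 0.07, unadjusted p = 0.0451, adjusted p = 0.635, limma-voom).

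The inducible HSP70 pair encodes nearly the same protein from neighbouring genes. *Hspa1a* (ENSMUSG00000091971.4, chr17:35188166-35191132, minus strand) was at 2.77, 3.43 and 3.36 CPM in the KO libraries, against 4.08, 5.65 and 4.08 CPM in WT. All 3 WT libraries lay above all 3 KO libraries, on 41 to 43 fragments in KO and 52 to 69 in WT. The log2 fold change was -0.52 (SE 0.22, unadjusted p = 0.0333, adjusted p = 0.635, limma-voom). *Hspa1b* (ENSMUSG00000090877.4, chr17:35175412-35178214, minus strand) was at 4.53, 5.86 and 5.08 CPM in the KO libraries, against 4.55, 6.71 and 3.77 CPM in WT. Here WT replicate 2 was the highest library and WT replicate 3 the lowest, and the groups overlapped throughout. Its log2 fold change was 0.07 (SE 0.22, adjusted p = 0.946, limma-voom), and it was -0.03 without KO replicate 2 and -0.12 without WT replicate 3.

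Since fragments that fit both genes are lost, only the remaining ones can be split between them. This split uses the same counts as the fold changes above, so it is no separate evidence. *Hspa1a* took 38.0%, 36.9% and 39.8% of the fragments assigned to the pair in KO, and 47.3%, 45.7% and 52.0% in WT. All WT shares lay above all KO shares, with means of 48.3% ± 3.28 against 38.2% ± 1.46 (SD, n = 3). A two-sided exact permutation test gave p = 0.1, the smallest that 3 libraries against 3 allow. The 95% Wilson intervals of single libraries overlapped, from 29.4% to 47.4% in KO replicate 1 and from 42.3% to 61.5% in WT replicate 3. These intervals cover counting error only, since fragments carry no molecular identifiers. Summed over both genes, the level was 8.34 ± 1.002 CPM in KO and 9.61 ± 2.41 CPM in WT (SD, n = 3, exact permutation p = 0.6, two-sided).

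**Figure D2:**
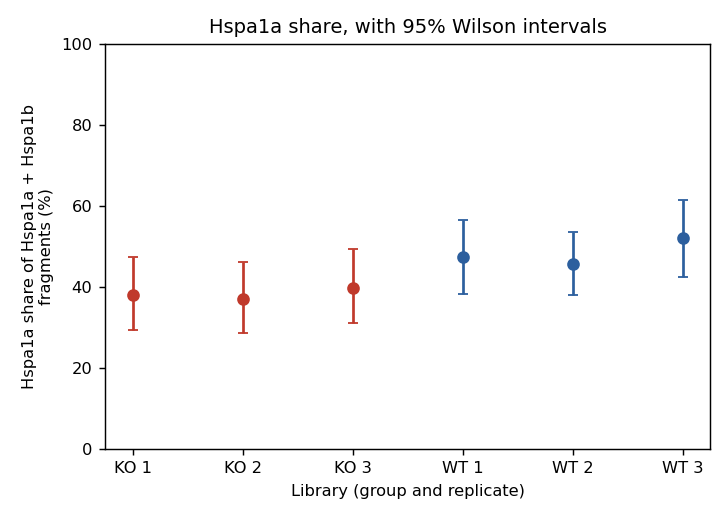
Share of *Hspa1a* in the fragments of *Hspa1a* and *Hspa1b* (vertical axis, percent) in each library, KO in red and WT in blue, with 95% Wilson intervals as bars. The KO shares lie between 36.9% and 39.8% and the WT shares between 45.7% and 52.0%, while the bars of the groups overlap.

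The other inducible members differed little or varied within the groups. *Hspb1* (ENSMUSG00000004951.11, chr5:135916773-135918417, plus strand) encodes a small chaperone that holds misfolded proteins without using ATP. It was at 2.77, 3.18 and 3.98 CPM in the KO libraries, against 6.04, 4.75 and 3.69 CPM in WT. The libraries labelled WT replicates 1 and 2 lay above all KO libraries and WT replicate 3 within their range (log2 fold change -0.54, SE 0.24, unadjusted p = 0.0441, adjusted p = 0.635, limma-voom). *Hsph1* (ENSMUSG00000029657.16, chr5:149537752-149559841, minus strand) encodes the HSP110 nucleotide exchange factor of HSP70. It was at 243, 292 and 273 CPM in the KO libraries, against 341, 297 and 271 CPM in WT. KO replicate 1 was the lowest library and the library labelled WT replicate 1 the highest, with WT replicate 3 among the KO libraries (log2 fold change -0.17, SE 0.09, adjusted p = 0.648, limma-voom). *Dnajb1* (ENSMUSG00000005483.11, chr8:84334822-84339282, plus strand), the J-domain partner of HSP70, was at 45.02, 58.4 and 49.6 CPM in the KO libraries, against 50.6, 60.2 and 51.3 CPM in WT. Replicate 2 was the highest library of each group for this gene, and the groups overlapped (log2 fold change -0.09, SE 0.10, adjusted p = 0.816, limma-voom). *Hsp90aa1* (ENSMUSG00000021270.14, chr12:110657039-110669162, minus strand) was at 481, 500.3 and 468 CPM in the KO libraries, against 543, 502 and 474 CPM in WT. Its groups overlapped, and the log2 fold change was -0.07 (SE 0.07, adjusted p = 0.79, limma-voom).

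Of the organelle members, *Hspd1* (ENSMUSG00000025980.15, chr1:55116994-55127402, minus strand) encodes the mitochondrial folding chamber. It was at 90.0, 93.1 and 89.7 CPM in the KO libraries, against 112, 96.9 and 94.1 CPM in WT. All WT libraries lay above all KO libraries, by less than 1 CPM between WT replicate 3 and KO replicate 2 (log2 fold change -0.15, SE 0.08, unadjusted p = 0.0783, adjusted p = 0.644, limma-voom). *Hspa5* (ENSMUSG00000026864.14, chr2:34661982-34667559, plus strand) encodes BiP, which folds secretory proteins and holds the stress sensors of the endoplasmic reticulum inactive. It was at 199, 225 and 206 CPM in the KO libraries, against 283, 253 and 185 CPM in WT. WT held both the highest and the lowest library, and WT replicate 3 lay below all KO libraries. Its log2 fold change was -0.18 (SE 0.12, adjusted p = 0.701, limma-voom).

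The libraries did not contribute evenly. WT replicate 2 lay above every KO library for 10 of 10 members and the library labelled WT replicate 1 for 8, whereas WT replicate 3 did so for 2, lay within the KO range for 6 and lay under all KO libraries for 2 (*Hspa1b* and *Hspa5*). KO replicate 1 was the lowest of the 6 libraries for 5 members. The map of deviations shows the library labelled WT replicate 1 highest for *Hspa5*, *Hspa8*, *Hsph1*, *Hspb1*, *Hsp90aa1* and *Hspd1*. WT replicate 2 was highest for *Hspa1a*, *Hspa1b*, *Dnajb1* and *Hsp90ab1*. Without WT replicate 3, 7 members were lower in KO at an unadjusted p under 0.05 in limma-voom, and the share of all genes tested that were lower at this p was then 6.397%. Without WT replicate 2 no member was, beside 1.84% of all genes. There was 1 member without KO replicate 1 (1.70% of all genes) and 1 without the library labelled WT replicate 1 (2.32%). There were 2 without KO replicate 2 (3.14%) and 2 without KO replicate 3 (3.15%), so the share over all genes moved with the libraries too. Leaving out the library labelled WT replicate 1 brought the log2 fold change to -0.11 for *Hspa8*, -0.05 for *Hspa5*, -0.08 for *Hsph1*, -0.07 for *Hspd1*, -0.36 for *Hspb1* and -0.01 for *Hsp90aa1*. Leaving out WT replicate 3 brought it to -0.32 for *Hspa8*, -0.36 for *Hspa5* and -0.24 for *Hsp90ab1*. For *Dnajb1* it was -0.0017 without KO replicate 1 and -0.20 without KO replicate 2.

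**Figure D3:**
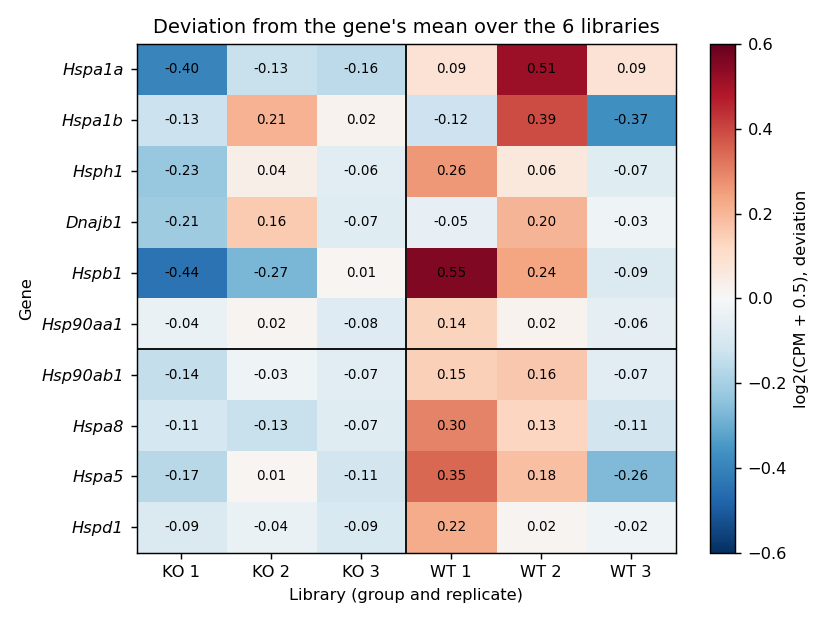
Deviation of each chaperone gene (rows) in each library (columns) from its mean over the 6 libraries, as log2(CPM + 0.5); red is above and blue below the mean, and the black lines divide KO from WT and stress-inducible from other members. The library labelled WT replicate 1 and WT replicate 2 are mostly red, and KO replicate 1, KO replicate 3 and WT replicate 3 are mostly blue.

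Within the 4 libraries that had Y-linked transcripts, 2 KO and 2 WT, the differences were smaller for most members. The median log2 fold change was -0.06 over the members there and 0.0019 over all genes tested. Of the members, 9 of 10 were below 0, beside 49.5% of all genes. The log2 fold change was -0.11 for *Hspa8*, -0.09 for *Hsp90ab1*, -0.01 for both *Hsph1* and *Hspa5*, and -0.22 for *Hspb1*. For *Hspa1a* it stayed at -0.49, and no member reached an unadjusted p under 0.05 in limma-voom. Of the 18476 genes tested in these 4 libraries, 696 did, and 1.41% of all were lower in KO at this p. The remaining libraries, the one labelled WT replicate 1 and KO replicate 1, are 1 of each group and allow no test. With a term for this split in the fit of all 6 libraries, the same values were -0.21 for *Hspa8* (unadjusted p = 0.0128, adjusted p = 0.374, limma-voom) and -0.51 for *Hspa1a* (unadjusted p = 0.0308). In that fit 24 genes, none of them a member, passed the adjusted threshold, and 4.61% of all genes were lower in KO at an unadjusted p under 0.05.

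**Figure D4:**
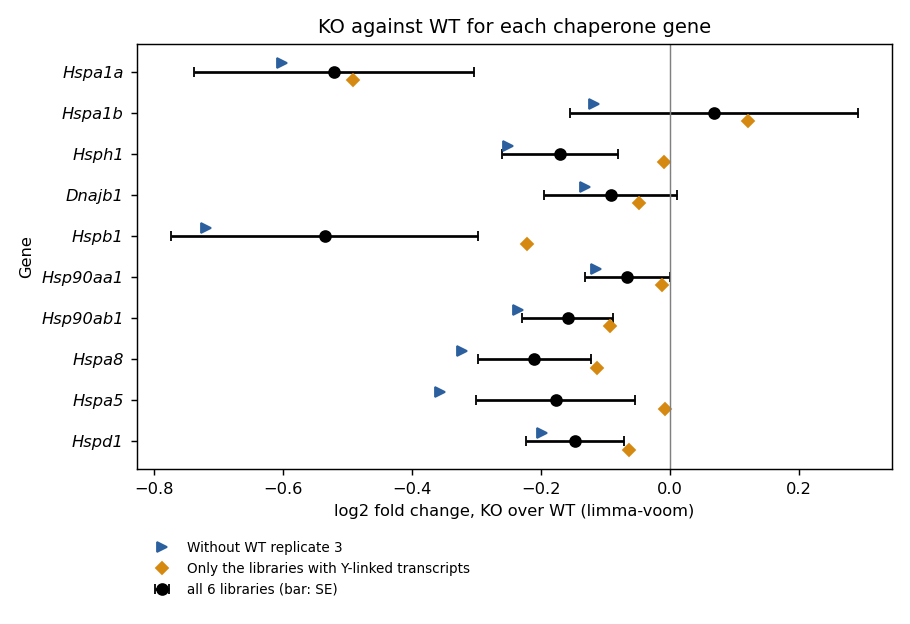
Log2 fold change of KO over WT for each chaperone gene from limma-voom, with all 6 libraries (black, bar: SE), without WT replicate 3 (blue triangles) and with only the 4 libraries that had Y-linked transcripts (orange diamonds). All genes but *Hspa1b* lie left of 0 in each version, and the triangles lie further left than the black points.

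Levels of cell type markers and of other measures also differed between libraries. Summed levels of the 6 excitatory neuron markers were 1566, 1962 and 1975 CPM in the KO libraries, against 2183, 2183 and 1891 CPM in WT, so KO replicate 1 was lowest and the libraries labelled WT replicates 1 and 2 highest. *Hsp90ab1*, *Hsph1* and *Hspb1* had the same lowest and the same highest libraries. All 6 of these markers had lower means in KO, with a median log2 fold change of -0.26, and 2 had an unadjusted p under 0.05 in limma-voom. Oligodendrocyte markers were higher in KO for 5 of 5 (median log2 fold change 0.22). They summed to 2064 to 2392 CPM in KO and 1594 to 2661 CPM in WT, lowest in the libraries labelled WT replicates 1 and 2. The mitochondrial share of fragments was 7.41% in KO replicate 1 and 7.39% in WT replicate 3, and 6.13% to 6.72% in the others. The summed immediate early genes ranged from 601 to 934 CPM in KO and from 549 to 814 CPM in WT, lowest in the library labelled WT replicate 1 and highest in KO replicate 2. Striatal, astrocyte and interneuron markers were also all higher in KO, and no marker of these classes or of oligodendrocytes had an unadjusted p under 0.05 in limma-voom. The values were for striatal neurons (6 of 6, median log2 fold change 0.35, 152 to 247 summed CPM in KO and 124 to 223 in WT), astrocytes (5 of 5, median 0.12) and interneurons (3 of 3, median 0.10, highest in KO replicate 1 at 886 summed CPM). The part of these measures in the chaperone values was not tested.

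Inducible and constitutive members were then set against each other within each library. The log2 ratio of summed inducible TPM to summed TPM of *Hspa8* and *Hsp90ab1* was -1.57, -1.51 and -1.61 in the KO libraries, against -1.64, -1.69 and -1.58 in WT. WT replicate 3 lay within the KO range. The group means differed by 0.07, with SDs of 0.05 and 0.06. The inducible sum was 709.9 ± 43.6 TPM in KO and 746 ± 59.8 TPM in WT, and the constitutive sum was 2099 ± 79.5 and 2329 ± 255 TPM (SD, n = 3). *Hsp90aa1* makes up most of the inducible sum, and without it the difference of the log2 ratio was 0.0022. With the mean of log2 levels in place of sums it was -0.03, so the sign depended on the measure. Without WT replicate 2 the difference of the summed ratio was 0.048, and without KO replicate 2 it was 0.049.

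The spread over libraries did not separate inducible from constitutive members. Over the 6 libraries the SD of log2(CPM + 0.5) was 0.36 for *Hspb1*, 0.31 for *Hspa1a* and 0.27 for *Hspa1b*, of which counting error alone would give 0.21, 0.21 and 0.18. This SD includes the difference between KO and WT. Within groups it was 0.28 for *Hspb1*, 0.20 for *Hspa1a*, no more than counting error, and 0.30 for *Hspa1b*. Within groups it was also 0.23 for *Hspa5*, 0.17 for *Dnajb1*, 0.15 for *Hsph1* and *Hspa8*, 0.10 for *Hsp90ab1* and *Hspd1*, and 0.08 for *Hsp90aa1*. Among the well-counted members the SD over the 6 libraries was highest for BiP (*Hspa5*) at 0.23, larger than for 92.6% of the 10254 genes with a mean of at least 10 CPM. It was 0.17 for *Hspa8* (83.1%), 0.16 for *Hsph1* (79.1%) and 0.16 for *Dnajb1* (76.1%). *Hsp90ab1* (0.12), *Hspd1* (0.12) and *Hsp90aa1* (0.08) were close to or below the median gene, whose SD was 0.11. The spread of the inducible *Hsp90aa1* was larger than that of 23.1% of those genes. Without the library labelled WT replicate 1, the SD was 0.046 for *Hspd1*, 0.045 for *Hsp90aa1* and 0.11 for *Hspa8*, and without WT replicate 2 it was 0.20 for *Hspa1a*.

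Levels of most members were positively correlated over the libraries. Of the 45 pairs, 44 had a positive Pearson correlation over the 6 libraries, and 17 had an exact permutation p under 0.05, but none passed adjustment over the 45 pairs (lowest adjusted p = 0.0917). The median r over the 45 pairs was 0.72. Among all pairs of the 10254 genes with a mean of at least 10 CPM, 50.4% were positive, the median r was 0.0064 and 7.75% had an r at or above 0.72. The median r was 0.48 among the 15 pairs of inducible members, 0.89 among the 6 pairs of constitutive and organelle members, and 0.78 among the 24 mixed pairs. *Hspa8* and *Hspd1* had r = 0.91 and rho = 0.49 (exact permutation p = 0.0292 and 0.356, adjusted p = 0.0917 and 0.485). Without the library labelled WT replicate 1 and WT replicate 2, the libraries farthest from the median of the first-named gene (as in the pairs that follow), r was -0.70, so the relation rests on those libraries. *Hspa5* and *Hspa8* gave a similar result, with r = 0.90 and rho = 0.66 (exact permutation p = 0.0208 and 0.175, adjusted p = 0.0917 and 0.375) and r = -0.29 without them. *Hsp90ab1* and *Hsph1* had r = 0.87 and rho = 0.94 (exact permutation p = 0.00694 and 0.0167, adjusted p = 0.0917 and 0.328), and r was 0.998 without the same libraries. *Hspa1a* and *Hspa1b*, with nearly the same control region, had r = 0.43 and rho = 0.26 (exact permutation p = 0.407 and 0.658, adjusted p = 0.530 and 0.705). With WT replicate 2 and KO replicate 1 left out, r was -0.83. The values of r with 2 libraries left out rest on 4 libraries each and only show how far the relation depends on those left out. For some pairs the 2 libraries left out were those lacking Y-linked transcripts, so r then covered the 4 that had them. This r was 0.98 for *Hsph1* with *Dnajb1*, 0.23 with *Hspb1* and 0.64 with *Hspd1*, against 0.48, 0.87 and 0.89 over all 6. For *Hspb1* with *Hspd1* it was 0.42, against 0.85 over all 6. For the other pairs no r was computed within those 4 libraries. Within the 2 lacking Y-linked transcripts none was computed. All these pairs share the libraries and their depth. An r over 6 libraries also takes in the difference between KO and WT, in which 9 of the 10 members were lower in KO. The permutations exchanged libraries regardless of group, and no r with the group means removed was computed.

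The genes whose levels most resembled the mean deviation of the inducible members over the 6 libraries were *Mrps27* (r = 0.996), *Urod* (0.995), *Ccdc92* (0.994), *Ywhag* (0.991) and *Rnft2* (0.991), out of 10219 other genes with a mean of at least 10 CPM. *Ywhag*, which encodes an abundant 14-3-3 protein, was at 852, 992 and 959 CPM in the KO libraries, against 1134, 1156 and 942 CPM in WT. These genes were picked for their likeness, so their order of libraries is no further finding.

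The wider chaperone system was described by 6 lists holding 70 further genes, each counted once. Of these, 60 had a log2 fold change below 0, with a median of -0.12, beside 48.1% and 0.01 over all genes tested. This median was -0.07 without the library labelled WT replicate 1 and -0.18 without WT replicate 3. With only the 4 libraries that had Y-linked transcripts it was -0.06. None passed the adjusted threshold in limma-voom, the quasi-likelihood test or DESeq2, while 12 were lower and 1 was higher at an unadjusted p under 0.05 in limma-voom, beside 3.44% lower and 4.38% higher over all genes. The number lower was 13 in the quasi-likelihood test (beside 3.31% of all genes) and 10 in DESeq2 (2.43%), but it depended on scaling and on single libraries. It was 2 with library totals alone (beside 2.19% of all genes), 20 with a term for Y-linked transcripts (4.61%) and 1 with only the 4 libraries that had them (1.41%). It was 32 without WT replicate 3 (beside 6.397% of all genes), 3 without WT replicate 2 (1.84%) and 1 without the library labelled WT replicate 1 (2.32%). Without KO replicate 1 it was 1 (1.70%), without KO replicate 2 it was 9 (3.14%) and without KO replicate 3 it was 2 (3.15%). Without WT replicate 3 the number below 0 was 61, and with only the 4 libraries that had Y-linked transcripts it was 56. All KO libraries lay below all WT libraries for 11 of the 70, beside 6.29% of all genes, and above them for 2 (*Hspa2* and *Unc45a*), beside 6.72%.

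Heat shock factors and their regulators were 2 above and 2 below 0, with a median log2 fold change of -0.04. The master regulator *Hsf1* was at 48.1, 47.9 and 48.2 CPM in the KO libraries, against 43.7, 47.4 and 49.4 CPM in WT. The KO values lay within the WT range, and the log2 fold change was 0.04 (SE 0.08, adjusted p = 0.898, limma-voom). *Hsf4* was at 16.1 ± 1.10 CPM in the KO libraries, against 19.5 ± 2.24 CPM in WT (SD, n = 3, log2 fold change -0.28, unadjusted p = 0.0337, adjusted p = 0.635, limma-voom), and its groups overlapped. *Hsbp1*, which binds heat shock factor 1, had the highest level of this list at 375 TPM and a log2 fold change of -0.10.

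Of 12 other genes of the heat shock response, 10 were below 0 and 3 of them had an unadjusted p under 0.05 in limma-voom, beside 48.1% and 3.44% of all genes tested. *Ahsa1*, which speeds up the ATPase of HSP90, was at 70.7, 74.9 and 80.7 CPM in the KO libraries, against 89.8, 85.5 and 83.0 CPM in WT. Its groups did not overlap (log2 fold change -0.19, SE 0.07, unadjusted p = 0.0207, adjusted p = 0.635, limma-voom). The others were *Stip1*, which links HSP70 to HSP90 and had the highest level of the list at 266 TPM (-0.19), and *Dnajb4* (-0.18), and both overlapped between groups. Among 19 partners of HSP70 and HSP90, 16 were below 0. *Dnaja2*, a J-domain protein, was at 151 ± 5.23 CPM in the KO libraries, against 171 ± 8.95 CPM in WT, and *Sgta* at 101 ± 0.956 and 112 ± 4.19 CPM (SD, n = 3), each with no overlap. *Bag1*, a nucleotide exchange factor of HSP70 with the highest level of this list (269 TPM), had a log2 fold change of -0.16 and overlapped between groups. *Hspa2*, an HSP70 family member best known from testis, went the other way at 37.5, 34.5 and 33.7 CPM in the KO libraries, against 26.2, 33.6 and 29.7 CPM in WT. All KO libraries lay above all WT libraries, by a small margin at WT replicate 2 (log2 fold change 0.25, SE 0.10, unadjusted p = 0.0283, adjusted p = 0.635, limma-voom).

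Endoplasmic reticulum chaperones and genes of the unfolded protein response were below 0 for 19 of 20, with a median of -0.15, beside 48.1% and 0.01 over all genes tested. *Calr*, the calcium-binding lectin chaperone and the most abundant of them at 394 TPM, was at 274, 275 and 275 CPM in the KO libraries, against 359, 302 and 280.3 CPM in WT. The KO libraries were nearly equal and lay below all WT libraries (log2 fold change -0.18, SE 0.08, unadjusted p = 0.0464, adjusted p = 0.635, limma-voom). *Atf4*, the transcription factor of the integrated stress response, was at 81.3 ± 4.92 CPM in the KO libraries, against 92.8 ± 8.85 CPM in WT (SD, n = 3), and its groups overlapped. The mean deviation of this list was 0.21 in the library labelled WT replicate 1 and -0.12 in WT replicate 3 on the log2 scale, and -0.08 to -0.06 in KO, so WT held its highest and its lowest library.

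Of 8 mitochondrial chaperones and proteases, 6 were below 0, with a median of -0.04, beside 48.1% and 0.01 over all genes tested. *Hspa9*, the mitochondrial HSP70 that pulls proteins in, had the highest level of this list (150.3 TPM) and was at 159 ± 9.04 CPM in the KO libraries, against 177 ± 11.3 CPM in WT (SD, n = 3, log2 fold change -0.16, unadjusted p = 0.044, adjusted p = 0.635, limma-voom). Its groups overlapped. *Hspe1*, the co-chaperonin that caps the HSP60 chamber, had a log2 fold change of -0.04, against -0.15 for *Hspd1*.

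The cytosolic chaperonin TRiC, the ring that folds actin and tubulin, was below 0 for 8 of 8 subunits, from -0.17 to -0.08. KO lay below WT without overlap for 5 of the 8. Over all genes tested, 48.1% were below 0 and 6.29% had KO below WT without overlap. At an unadjusted p under 0.05 in limma-voom, 3 subunits were lower in KO, beside 3.44% of all genes. *Cct8* was at 122, 121 and 114 CPM in the KO libraries, against 141, 136 and 124 CPM in WT. Its WT replicate 3 lay closest to the KO libraries (log2 fold change -0.17, SE 0.07, unadjusted p = 0.0345, adjusted p = 0.635, limma-voom). *Cct2* and *Cct7* also had an unadjusted p under 0.05, each with a log2 fold change of -0.16. *Cct5*, the subunit with the highest level at 162 TPM, was at -0.13 and did not, although its groups were separated. Subunits of 1 complex and genes of 1 list share libraries and are not independent replicates.

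**Figure D5:**
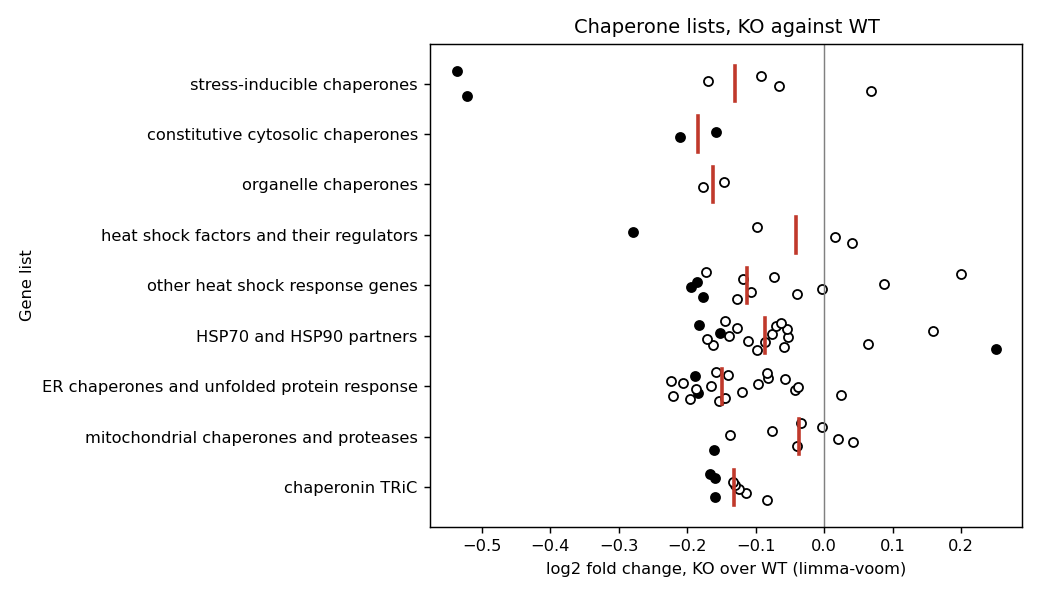
Log2 fold change of KO over WT (horizontal axis, limma-voom) of each gene in the chaperone lists (rows); filled points have an unadjusted p under 0.05, open points do not, and the red line is the median of the list. Medians range from -0.18 for the constitutive cytosolic chaperones to -0.04 for the mitochondrial list and the heat shock factors, and no point passes the adjusted threshold.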

How the data were processed

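Polyadenylated RNA of prefrontal cortex was measured in 3 KO and 3 WT libraries, grouped by their titles. The authors deposited raw counts of fragments per gene, 1 table per library, with no normalization and no pooling. Per the submitters' processing notes and the file headers, reads were aligned with STAR 2.7.9a after FastQC 0.11.8, and exonic fragments were counted with featureCounts 1.6.0 in paired mode with strand option 2 on GENCODE M31 (GRCm39). The study's methods name an earlier build and release. The headers list no option for multi-mapping fragments, so these were not counted, which lowers genes with close copies. The read length is not given in the sources used here. Symbols were matched for 52073 genes.

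Genes with at least 6 fragments in at least 1 library were tested (19084), following the study's methods, and all 10 members passed. TMM factors came from edgeR 4.0.16. KO was compared with WT by voom and limma 3.58.1 in R 4.3.3, two-sided and without covariates. P-values were adjusted after Benjamini and Hochberg across the 19084 genes, with 0.05 as the threshold. TPM used the exonic gene length of the deposited tables. As alternatives, DESeq2 1.42.0 or a quasi-likelihood fit in edgeR replaced voom, scaling and filters were varied, libraries were weighted by quality or left out singly, and a block for the replicate number or for Y-linked transcripts was added. Scripts were tested on simulated data. Promoter sequences are from RefSeq (GRCm38.p6), and shared 100-base stretches were found in transcripts of an earlier GENCODE release.

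The members, lists, tests and alternatives were chosen with earlier results of these data known. Named genes were the members, *Pla2g4e*, in each further list the gene of highest TPM and those with an unadjusted p under 0.05, and the 5 genes most like the inducible mean. *Hsf1*, *Hspe1*, *Unc45a* and the values of their lists were added as examples after their values were seen. Library totals were 11792463 to 14594230 fragments.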

Additional observations from a re-analysis of the deposited data

How the results depend on the processing

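Fold changes and counts of genes were recomputed under 17 alternatives. The ratio and the spread were recomputed under those that apply to them, and the *Hspa1a* share and the TPM order under none. The adjusted p of the members never fell below 0.255, its value without WT replicate 3, so the count past the threshold was 0 each time. The direction was kept by 9 members under every alternative. *Hspa1b*, at 0.07 on the log2 scale, reversed to -0.03 without KO replicate 2 and to -0.12 without WT replicate 3, and leaving out single libraries gave -0.12 to 0.29. The number of members lower in KO at an unadjusted p under 0.05, 4 in limma-voom, was 2 with DESeq2 and with library totals alone, 0 with only the libraries that had Y-linked transcripts, where 4 libraries were left, and 0 to 7 when single libraries were left out. The share of all genes lower at this p moved too, from 3.44% to 2.43% with DESeq2, 2.19% with library totals alone and 1.41% with those 4 libraries. When single libraries were left out it was 1.70% to 6.397%. The cause was not tested. Members with a log2 fold change below 0 numbered 9 or 10 throughout, and the further listed genes 56 to 61 of 70. With library totals alone, 42.5% of all genes were below 0 in place of 48.1%, and the median over the members was -0.14. Leaving out single libraries moved the SD of *Hspd1*, *Hsp90aa1*, *Hspa8* and *Hspa1a* by over 1.5 times, as given with the spread. The log2 ratio of inducible to constitutive levels differed by 0.07 between groups, by 0.048 without WT replicate 2 and by 0.049 without KO replicate 2. Without *Hsp90aa1* it differed by 0.0022, and with the mean of log2 levels by -0.031.

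With the replicate number as a block (replicate block), *Hspa8* was at -0.21 (unadjusted p = 0.0205, adjusted p = 0.516, limma-voom), and no adjusted call changed. In this fit 4 members were again lower at an unadjusted p under 0.05, beside 3.62% of all genes. Deviations of same-numbered libraries correlated at 0.60, 0.22 and 0.07 across genes, which are not independent replicates, so the numbers were not taken as pairs. Depth limits *Hspa1a*, *Hspa1b* and *Hspb1*, which rest on 38 to 82 fragments per library.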
